A study of Mus musculus with 14 samples.

Results

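The genes described here are the 10 that encode the Myc network of transcription factors: the Myc paralogs Myc, Mycn and Mycl, the shared partner Max, the antagonists Mxd1, Mxd3, Mxd4, Mxi1 and Mnt, and the Max-like factor Mlx. They were taken by name, 10 of 45217 mouse genes whose start could be placed on the GRCm38 genome, and each was followed through the H3K4me3 peak within 1 kb of its start. H3K4me3 is a histone mark found at the starts of active genes, and it was profiled by CUT&Tag, in which a transposase held at the antibody cuts out nearby DNA. The cells were LSK cells (Lin-Sca1+cKit+), a fraction that holds blood stem and early progenitor cells, sorted from the BM of mice. The series text spells the mouse strain C57B6/J, which differs from the spelling in the paper. One peak list was analyzed for each of 3 libraries from mice on a high-fat diet (HFD-LSK 1, 2 and 3) and of 4 libraries from mice on the control diet (LFD-LSK 1, 2, 3 and 4), which the series text calls a normal-fat diet. The 7 IgG libraries of the same cells were not analyzed here. No source used here says whether replicates came from separate mice, so the p-values measure the spread between these libraries only.

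Myc proteins bind DNA as pairs with Max, and the pair activates genes through the E-box CACGTG. The Mxd proteins (Mxi1 is Mxd2) and Mnt also pair with Max, occupy the same E-boxes and recruit Sin3 and histone deacetylases, so they oppose Myc. Mlx resembles Max but pairs with the glucose-sensing factors MondoA (Mlxip) and ChREBP (Mlxipl) as well as with some antagonists. In blood stem cells the balance of Myc with its antagonists is known for setting growth and the exit from quiescence.

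The promoter sequences below are shown because they carry the network's own binding motif or, in Mycn, an E2F site, and because a called peak overlapped each of them in some or all of the lists. Of the 10 members, 9 had an entry in the RefSeq promoter table of GRCm38.p6, which holds 250 bases before and 50 after each of 32851 transcript starts. The E-box CACGTG, which reads the same on both strands, was found in the promoters of 4 members, Max, Mxd4, Mnt and Mlx, and in 7.15% of all promoters in the table. Among the 5216 promoters whose start lay inside a peak called in all 7 lists, 10.3% held it. The E2F site TTTGGCGC, searched on both strands and not overlapping the E-box, was found 2 times in the Mycn promoter, in no other member, in 0.514% of all promoters and in 1.19% of those whose start lay inside a peak called in all 7 lists. Both motifs were chosen with the sequences in view, and a match is a description of the letters and not a measured binding site. Each sequence runs 5′ to 3′ on the strand of its gene, from 240 bases before the transcript start to 20 bases from it, with the motif in capitals.
Mycn, chr12:12941817-12942076, minus strand, the E2F site in capitals: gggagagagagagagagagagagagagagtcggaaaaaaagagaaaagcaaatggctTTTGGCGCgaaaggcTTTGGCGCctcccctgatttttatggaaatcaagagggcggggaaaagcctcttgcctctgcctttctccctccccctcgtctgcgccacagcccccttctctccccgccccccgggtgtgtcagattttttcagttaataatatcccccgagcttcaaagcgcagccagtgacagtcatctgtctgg
Max, chr12:76962229-76962488, minus strand, the E-box in capitals: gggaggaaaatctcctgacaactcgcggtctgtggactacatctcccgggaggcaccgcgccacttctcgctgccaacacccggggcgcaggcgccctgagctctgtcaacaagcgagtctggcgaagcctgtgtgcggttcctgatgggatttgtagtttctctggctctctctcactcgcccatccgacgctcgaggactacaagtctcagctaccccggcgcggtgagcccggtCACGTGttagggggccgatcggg
Mxd4, chr5:34187691-34187950, minus strand, the E-box in capitals: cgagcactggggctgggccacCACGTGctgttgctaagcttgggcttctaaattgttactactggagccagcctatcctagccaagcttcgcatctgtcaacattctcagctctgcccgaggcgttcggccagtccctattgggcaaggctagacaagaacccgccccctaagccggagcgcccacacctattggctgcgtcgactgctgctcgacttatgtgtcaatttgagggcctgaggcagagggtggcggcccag
Mnt, chr11:74830684-74830943, plus strand, the E-box in capitals: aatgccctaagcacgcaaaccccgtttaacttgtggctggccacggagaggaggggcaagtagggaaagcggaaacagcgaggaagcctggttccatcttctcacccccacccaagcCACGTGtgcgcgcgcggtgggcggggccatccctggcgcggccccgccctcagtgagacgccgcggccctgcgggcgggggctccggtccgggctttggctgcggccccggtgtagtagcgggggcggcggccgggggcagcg
Mlx, chr11:101087050-101087309, plus strand, the E-box in capitals: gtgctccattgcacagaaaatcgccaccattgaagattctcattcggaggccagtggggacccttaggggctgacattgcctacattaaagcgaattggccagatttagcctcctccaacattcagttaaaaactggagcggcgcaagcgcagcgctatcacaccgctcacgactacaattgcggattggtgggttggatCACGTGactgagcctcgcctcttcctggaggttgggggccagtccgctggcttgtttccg

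A called peak overlapped the printed stretch in all 7 lists for Max and Mnt, in 6 for Mxd4, which had no call in LFD-LSK 4, and in 4 for Mlx. In as many lists a peak covered the first base of the E-box. In Mycn a peak overlapped the stretch in 4 lists and the first base of the upstream E2F site in 2, and in HFD-LSK 1, HFD-LSK 3 and LFD-LSK 4 the peak began farther inside the gene.

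The E-box of Max spans the transcript start, beginning 3 bases before it. The E-boxes of Mlx, Mnt and Mxd4 begin 40, 123 and 219 bases before the start. The promoters of Mycl, Mxd1, Mxd3 and Mxi1 held neither motif in this window. The 11 promoters of the 9 members held 14 to 49 CpG dinucleotides in 300 bases, and the median of the whole table was 7. The Mxd1 promoter held 39 and that of Mnt 32, while that of Mycn, with 14, held the fewest of the members. Of all promoters in the table, 4.45% held at least as many as Mxd1, 9.52% as Mnt and 36.3% as Mycn. The CpG count of promoters whose start lay inside a called peak is not given here.

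The lists held 9186, 13094 and 11977 peaks in HFD-LSK 1, 2 and 3 and 7447, 10572, 10352 and 6921 in LFD-LSK 1, 2, 3 and 4. Merged where they touched, they gave 14659 consensus peaks, of which 4395 were called in all 7 lists. The depth of each library was recovered from the fold and p of each peak, as described with the processing. The fewest fragments at a called summit were 16, 8 and 4 in HFD-LSK 1, 2 and 3 and 21, 10, 8 and 9 in LFD-LSK 1, 2, 3 and 4. In multiples of a library's mean coverage, these limits ran from 29.8 in HFD-LSK 2 to 101 in LFD-LSK 4, so the same domain could be called in one list and missed in another. The mean peak width ran from 605 bp in LFD-LSK 4 to 1333 bp in HFD-LSK 2.

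The identity of the cells was checked at marker genes. Of 10 LSK markers, 6 (Kit, Cd34, Gata2, Meis1, Mecom and Tal1) were called in all 7 lists, Flt3, Hlf and Runx1 in some, and Ly6a, which encodes Sca1, in none. None of 5 T and NK cell, 4 B cell, 4 mature myeloid or 4 non-blood markers was called in any list. Of the erythroid markers, Klf1 was called in 6 lists and Epor in 4, with median summits of 191 and 69.4 times mean coverage, and Hba-a1 in none. The most erythroid of these genes, the globin Hba-a1, thus had no call, and the part of erythroid cells in any result was not tested.

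H3K4me3 was found at the start of all 10 members in at least 1 list, and each had exactly 1 consensus peak within 1 kb, which held no other gene's start. Of 21440 protein-coding genes, 51.3% had such a peak. Mycn, Max, Mxd1, Mxi1 and Mnt were called in all 7 lists, 5 of 10 members where 21.2% of protein-coding starts were. A call here is any peak of the list in the consensus peak, and in LFD-LSK 1 the only Mxi1 peak began 2982 bp inside the gene. With a peak of the list itself required within 1 kb, Mxi1 was called in 6 lists and 4 of 10 members in all 7, where 20.2% of protein-coding starts were. The count of 5 depended on the peaks kept. It was 2 with a −log10 q of at least 5 and 1 with the same number of strongest peaks in each list. With a call covering 50% of the consensus peak it was 0. The share of all protein-coding starts under these settings is not given here, so these counts were not set against the 21.2%. Myc and Mxd4 were called in 6 lists and missed only in LFD-LSK 4, and Mlx was called in 6 and missed only in HFD-LSK 1. Mxd3 was called in 5 lists, not in LFD-LSK 1 or 4, and Mycl in 4, those of HFD-LSK 1 and 2 and LFD-LSK 2 and 3. In all, 62 of the 70 pairs of gene and list held a call. Fisher's exact test of the calls by diet, two-sided, gave p = 0.429 for Mxd3 and Mlx and p = 1 for Myc, Mycl and Mxd4. For a gene missing in only 1 or 2 lists this test cannot give a p under 0.05. It therefore decides nothing for Myc, Mxd4, Mlx and Mxd3.

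**Figure D1:**
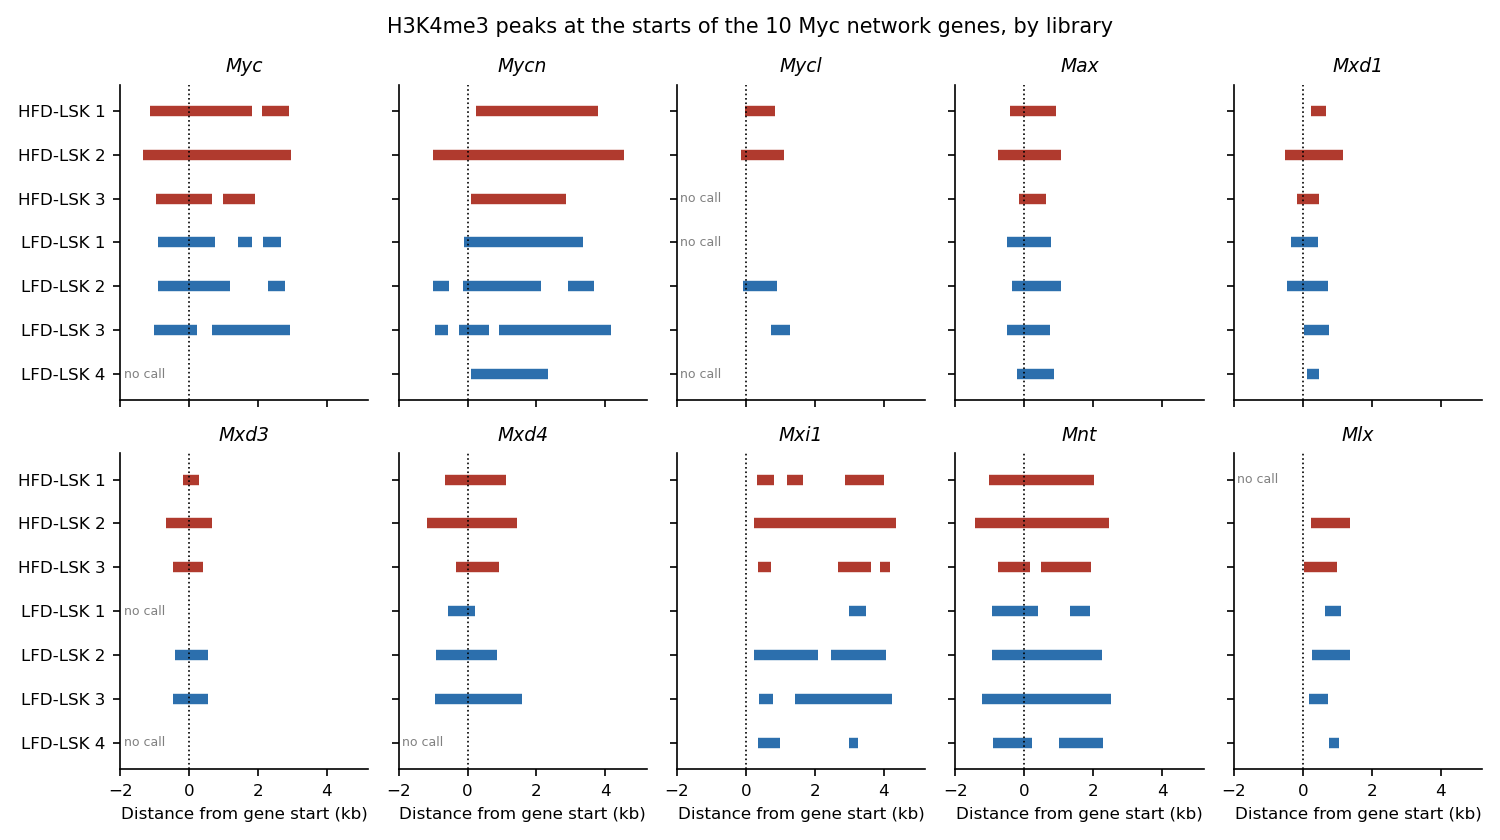
Extent of the H3K4me3 peaks at each of the 10 genes, with 1 row per library (HFD-LSK in red, LFD-LSK in blue) and the distance from the gene start in kb along the direction of transcription on the x axis. Bars are called peaks, and those of Mycn and Mxi1 reach over 4 kb into the gene in some lists while those of Mxd3 stay within 1 kb.

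The missing calls were set against the depth of the libraries. At its median height in the other 6 lists, Myc would give 35.0 fragments in LFD-LSK 4, where the lowest called summit had 9. Of 5949 consensus peaks called in the other 6 lists, 26.1% were missing in LFD-LSK 4, but of the 158 at least as high as Myc only 17 were (10.8%). No peak at all was called within 1 Mb of the Myc domain in LFD-LSK 4, where the other lists held 2 to 4. Those counts include the 1 to 3 peaks of the Myc domain itself, so the lack of peaks partly restates the missing call. Mxd4 would give 27.7 fragments, and of 783 peaks at least as high 94 were missing there (12.0%). Mlx would give 38.4 fragments in HFD-LSK 1, where the limit was 16, and only 2.57% of the peaks called in the other 6 lists were missing there. Among the 3329 at least as high as Mlx, 33 were (0.991%). Most peaks as high as these 3 genes were called in those lists, and the cause of the missing calls was not tested.

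Fold enrichment is the ratio of a summit to the local background that the peak caller took there, taken with 1 added to both. The genome level of this background was low, from 0.0201 in LFD-LSK 4 to 0.113 in HFD-LSK 2. At that level the added 1 makes up most of the divisor. A background of many times the genome level can still be a low coverage, and no counting error is given for it. The fold was ranked within each list, with rank 1 for the largest fold. Tied peaks share a mean rank, and where a list held no call, the gene was placed midway through the ranks left over after its called peaks. No member's ranks separated the diets: in every case the groups overlapped, and the lowest of the 10 exact permutation p-values was 0.0571, for Mxi1. Over all 14659 consensus peaks, 0.614% passed an unadjusted p of 0.05 with HFD-LSK nearer the top and 1.38% with HFD-LSK farther from it, and 0 of 10 members did in either direction. The smallest p that 3 against 4 libraries allow is 0.0286, and after Benjamini-Hochberg adjustment over all consensus peaks no peak in the table fell below 0.938. By mean rank, 3 members (Myc, Mxd3 and Mxd4) were nearer the top in HFD-LSK and 7 farther from it, where 64.3% of the peaks called in all 7 lists were farther. HFD-LSK 2 and 3 were the 2 longest lists, so ranks there can run higher.

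Besides the rank, the number of fragments at the highest summit of each domain was recovered, divided by the mean coverage of its library, and is called the summit height. It is an inferred value whose 95% intervals (exact Poisson) cover counting error only. The height does not divide by the local background. At the median of the 10 members the highest height was 1.57 times the lowest. Ranked within the lists by fragments, the farthest called rank was 4.34 times the nearest at the median, and by fold it was 7.50 times, with the smaller ratio by fragments in 9 of 10 members. Among the 5 members called in all 7 lists, none had an exact permutation p of the height difference under 0.05. Among 4393 consensus peaks with a height in all 7 lists, 0.0911% passed with HFD-LSK larger and 0.797% with HFD-LSK smaller. By mean height 7 members were lower and 3 higher in HFD-LSK, and 64.8% of those consensus peaks were lower.

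Myc, the oncogene and the founder of the family, stood highest of the 10 by median height. Its gene lies at chr15:61985341-61990361 on the plus strand, and its consensus peak, chr15:61984003-61988284, spans 4282 bp from 1338 bp upstream of the start to 2943 bp inside the gene, over 58.6% of it. Only 0.825% of consensus peaks were as long. The summit reached 443, 414 and 302 times mean coverage in HFD-LSK 1, 2 and 3 and 384, 401 and 217 times in LFD-LSK 1, 2 and 3, with 29 to 111 fragments behind each value. The groups overlapped, and LFD-LSK 3 stood lowest. With no value in LFD-LSK 4, the height was not tested. The width was 3746, 4282 and 2549 bp in HFD-LSK and 2580, 2594 and 3520 bp in LFD-LSK 1, 2 and 3, so these groups overlapped too. The domain came as 1 to 3 separate peaks, one over the start and the others farther inside the gene.

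The fold rank of Myc was 137.5, 201.5 and 3124 in HFD-LSK 1, 2 and 3 and 380, 3825.5 and 3840 in LFD-LSK 1, 2 and 3. With LFD-LSK 4 set to 10585, the mean was 3503 ranks nearer the top in HFD-LSK, with SDs of 1706 and 4274 (exact permutation test, two-sided, p = 0.143, adjusted p = 0.938). Without LFD-LSK 4, the list with no call, the difference (HFD-LSK minus LFD-LSK) was -1527.5 ranks. In 3 lists Myc stood at rank 380 or nearer the top and in 3 at rank 3124 or farther from it, and each diet had some of both. The background under the summit that gave the rank was 1.00, 2.52 and 4.90 times the genome level in HFD-LSK 1, 2 and 3 and 1.00, 21.0 and 1.06 times in LFD-LSK 1, 2 and 3. In HFD-LSK 3 and LFD-LSK 3 this summit lay 1777 and 2638 bp into the gene, while under the highest summit, near the start, the background was 28.4 and 19.98 times. The rank of 3840 in LFD-LSK 3 thus came with a background near the genome level.

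Mycn, the paralog known from blood stem cells and neuroblastoma, carried the longest domain of the 10. The gene occupies chr12:12936093-12941836 on the minus strand, and the consensus peak, chr12:12937287-12942827, spans 5541 bp and 79.2% of the gene, from 991 bp upstream to 4549 bp inside. It was place 27 in length among all consensus peaks. The width was 3544, 5539 and 2764 bp in HFD-LSK and 3450, 3480, 4492 and 2238 bp in LFD-LSK 1, 2, 3 and 4. In each of the 7 lists it lay among the widest 1.05% or less. The means of 3949 ± 1431 bp (SD, n = 3) and 3415 ± 922 bp (SD, n = 4) differed by less than this spread (exact permutation test, two-sided, p = 0.543, adjusted p = 0.770).

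The Mycn summit was only of middling height, at 209, 198 and 155 times mean coverage in HFD-LSK and 197, 227, 142 and 213 times in LFD-LSK. The difference of the means was -7.35 (exact permutation p = 0.714, two-sided, adjusted p = 1). Its fold rank was 7283.5, 3533.5 and 1931 in HFD-LSK and 4614.5, 2462, 4579 and 3718.5 in LFD-LSK, with both the nearest and the farthest in HFD-LSK (mean difference 406 ranks, exact permutation p = 0.857). In HFD-LSK 1, where the rank was farthest from the top, the background at the summit was 14.1 times the genome level, against 1.00 to 4.90 times in the other lists.

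Mycl, the third paralog, had the lowest summit of the 10 and was called in the fewest lists. The gene occupies chr4:122995588-123002490 on the plus strand, and the consensus peak, chr4:122995459-122996870, spans 1412 bp, mostly downstream of the start. The summit reached 139 and 116 times mean coverage in HFD-LSK 1 and 2 and 134 and 90.0 times in LFD-LSK 2 and 3. The calling limits of LFD-LSK 1 and 4, at 98.3 and 101 times, lie within this range, so a domain of this height would not be detectable there in every case, while that of HFD-LSK 3 was 34.5 times. The called ranks were 7006.5 and 9340 in HFD-LSK and 6523.5 and 8587 in LFD-LSK, all in the lower part of their lists, and with the 3 missing lists filled in the means differed by 599 ranks (exact permutation p = 0.771, two-sided).

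Max, the shared partner of Myc and its antagonists on DNA, was called in every list. Its gene lies at chr12:76937269-76962323 on the minus strand, and the consensus peak, chr12:76961250-76963098, spans 1849 bp around the start, 775 bp of it upstream. The summit reached 299, 272 and 190 times mean coverage in HFD-LSK and 234, 325, 165 and 382 times in LFD-LSK. The LFD-LSK values enclosed those of HFD-LSK (means 254 ± 56.7, SD, n = 3, and 276 ± 96.1, SD, n = 4, exact permutation p = 0.743, two-sided). The width was 1346, 1849 and 766 bp in HFD-LSK and 1280, 1438, 1268 and 1093 bp in LFD-LSK (exact permutation p = 0.829).

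The fold rank of Max was 1514.5, 1003 and 11212.5 in HFD-LSK and 3134, 1464.5, 3221 and 356 in LFD-LSK. In HFD-LSK 3 it stood among the last of 11221 called peaks, while by fragments its summit there was rank 2591. The background at that summit was 56.7 times the genome level, and in the other lists it was 1.00 to 5.26 times. The mean rank was 2533 farther from the top in HFD-LSK (exact permutation p = 0.571, two-sided), and without HFD-LSK 3 it was nearer the top by 785 ranks.

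**Figure D2:**
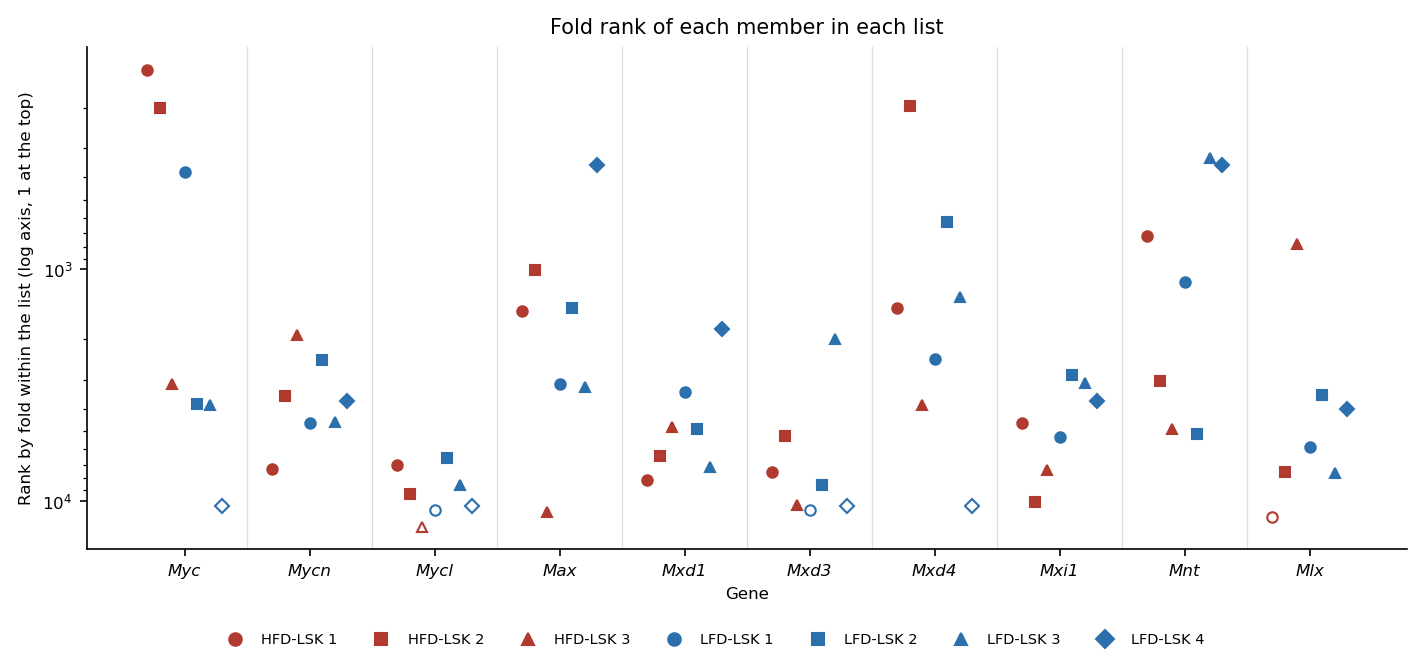
Rank of each gene by fold within each list on a log axis with 1 at the top, HFD-LSK in red and LFD-LSK in blue, with a marker shape per replicate number. Filled points are calls and open points are lists without a call, placed midway through the ranks left over. The diets overlap for all 10 genes, and Max in HFD-LSK 3 stands at 11212.5.

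The antagonists were led by Mnt, the broadly expressed member of the group. Its gene lies at chr11:74830806-74845725 on the plus strand, and the consensus peak, chr11:74829369-74833327, spans 3959 bp from 1437 bp upstream to 2521 bp inside. The summit reached 353, 339 and 293 times mean coverage in HFD-LSK and 323, 343, 270 and 382 times in LFD-LSK. The 7 values lay close together, with the highest 1.41 times the lowest, and the means of 329 ± 31.4 (SD, n = 3) and 329 ± 46.5 (SD, n = 4) differed by -0.558 (exact permutation p = 1, two-sided). The width was 3073, 3883 and 2383 bp in HFD-LSK and 1918, 3186, 3764 and 2398 bp in LFD-LSK (exact permutation p = 0.686). The fold rank was 717, 3053.5 and 4916.5 in HFD-LSK and 1134.5, 5146, 330.5 and 356 in LFD-LSK (exact permutation p = 0.514), so a steady summit went with widely spread ranks. The ranks of 4916.5 and 5146 came with backgrounds of 28.4 and 21.0 times the genome level, and the others with 1.00 to 7.55 times.

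Mxd4, an antagonist of quiescent and differentiating cells, was near Mnt in height. Found at chr5:34176580-34187710 on the minus strand, the gene had a consensus peak of 2766 bp, chr5:34186128-34188893. The summit reached 294, 358 and 242 times mean coverage in HFD-LSK and 328, 337 and 210 times in LFD-LSK 1, 2 and 3. The width was 1761, 2626 and 1247 bp in HFD-LSK and 783, 1768 and 2514 bp in LFD-LSK 1, 2 and 3, and in both measures the groups overlapped. The fold rank was 1473, 196.5 and 3869 in HFD-LSK and 2449.5, 627.5 and 1323.5 in LFD-LSK 1, 2 and 3. The mean, with LFD-LSK 4 set to 10585, was 1900 ranks nearer the top in HFD-LSK (exact permutation p = 0.771, two-sided), and without LFD-LSK 4 it was 379 ranks farther, so that 1 library decided the direction.

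Mxi1, an antagonist with several promoters, had the steadiest summit of the 10, with the highest value 1.24 times the lowest, and the lowest p by rank. Its gene lies at chr19:53310128-53373293 on the plus strand. The consensus peak at the gene start, chr19:53310369-53314468, spans 4100 bp and begins 241 bp inside the gene. The summit reached 194, 201 and 173 times mean coverage in HFD-LSK and 187, 215, 180 and 213 times in LFD-LSK (exact permutation p = 0.514, two-sided). This is the highest summit anywhere in the domain, which lay 3152 to 3535 bp inside the gene in HFD-LSK 1, HFD-LSK 3, LFD-LSK 1 and LFD-LSK 2 and 424 to 599 bp inside in the other lists. The fold rank was 4635, 10099 and 7374 in HFD-LSK and 5293.5, 2864.5, 3087 and 3718.5 in LFD-LSK. HFD-LSK 1 was nearer the top than LFD-LSK 1, and the other HFD-LSK lists were farther than every LFD-LSK list (mean difference 3628 ranks, exact permutation p = 0.0571, two-sided, adjusted p = 0.938). Without HFD-LSK 2 the difference was 2264 ranks. The 2 farthest ranks came with backgrounds of 17.7 and 18.9 times the genome level, against 1.00 to 2.65 times elsewhere, and ranked by summit fragments the groups again overlapped, with a mean difference of 266 ranks (exact permutation p = 0.714, two-sided).

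The width of this Mxi1 domain was 2119, 4100 and 1656 bp in HFD-LSK and 513, 3439, 3224 and 888 bp in LFD-LSK (exact permutation p = 0.6, two-sided). In LFD-LSK 1 a single peak was called, about 3 kb inside the gene, and in 5 of the other lists the domain was split into 2 or 3 peaks. A separate consensus peak, chr19:53329333-53330704, lay over further transcript starts 19285 and 19567 bp inside the gene boundary and was called in all 7 lists. Its summit reached 189, 172 and 129 times mean coverage in HFD-LSK and 154, 209, 232 and 202 times in LFD-LSK, with a median of 189 times, against 194 for the first domain, and a median width of 903 bp. The groups overlapped in its height (exact permutation p = 0.2, two-sided) and in its rank (exact permutation p = 0.657).

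Mxd1, the antagonist induced as myeloid cells differentiate, and Mxd3, linked with the S phase of the cell cycle, had lower summits than Mnt and Mxd4 and the narrowest domains of the antagonists, by median. The Mxd1 gene lies at chr6:86647044-86669234 on the minus strand with a consensus peak of 1695 bp, chr6:86668062-86669756. Its summit reached 179, 131 and 268 times mean coverage in HFD-LSK and 229, 174, 112 and 281 times in LFD-LSK, the widest spread of heights among the members, 2.50-fold (exact permutation p = 0.914, two-sided). The width was 437, 1695 and 638 bp in HFD-LSK and 784, 1206, 721 and 337 bp in LFD-LSK (exact permutation p = 0.686). The fold rank was 8127.5, 6414.5 and 4790.5 in HFD-LSK and 3386.5, 4914.5, 7133 and 1807 in LFD-LSK, overlapping from 4790.5 to 7133 (exact permutation p = 0.257).

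The Mxd3 gene lies at chr13:55325170-55329900 on the minus strand, with a consensus peak of 1341 bp, chr13:55329242-55330582, centered on the start. Its summit reached 159, 153 and 199 times mean coverage in HFD-LSK and 197 and 202 times in LFD-LSK 2 and 3, and the groups overlapped. The calling limits of LFD-LSK 1 and 4 were 98.3 and 101 times, under these heights. The called ranks were 7511.5, 5233.5 and 10482.5 in HFD-LSK and 8580 and 2001 in LFD-LSK, and with the missing lists filled in the means differed by -288 ranks (exact permutation p = 0.886, two-sided).

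Mlx was the 1 member whose called heights did not overlap between the diets. Of 4509 consensus peaks with a height in the same 6 lists, 6.14% were likewise lower in HFD-LSK 2 and 3 than in every LFD-LSK list, and 0.532% were higher. The gene spans chr11:101086707-101092207 on the plus strand, and the consensus peak, chr11:101086748-101088077, spans 1330 bp, all of it inside the gene as bounded by RefSeq and over the transcript start 583 bp in. The summit reached 145 and 155 times mean coverage in HFD-LSK 2 and 3 and 173, 209, 210 and 213 times in LFD-LSK. With HFD-LSK 1 uncalled the height was not tested, and the 95% intervals of these values, 92.1 to 246 in HFD-LSK 3 and 122 to 239 in LFD-LSK 1, overlapped. By rank the groups did overlap, at 7535 and 780.5 in HFD-LSK 2 and 3 and 5831, 3493.5, 7616.5 and 3995.5 in LFD-LSK (exact permutation p = 0.657, two-sided, with HFD-LSK 1 set to 11789). The width was 1121 and 964 bp in HFD-LSK 2 and 3 and 487, 1111, 557 and 287 bp in LFD-LSK.

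**Figure D3:**
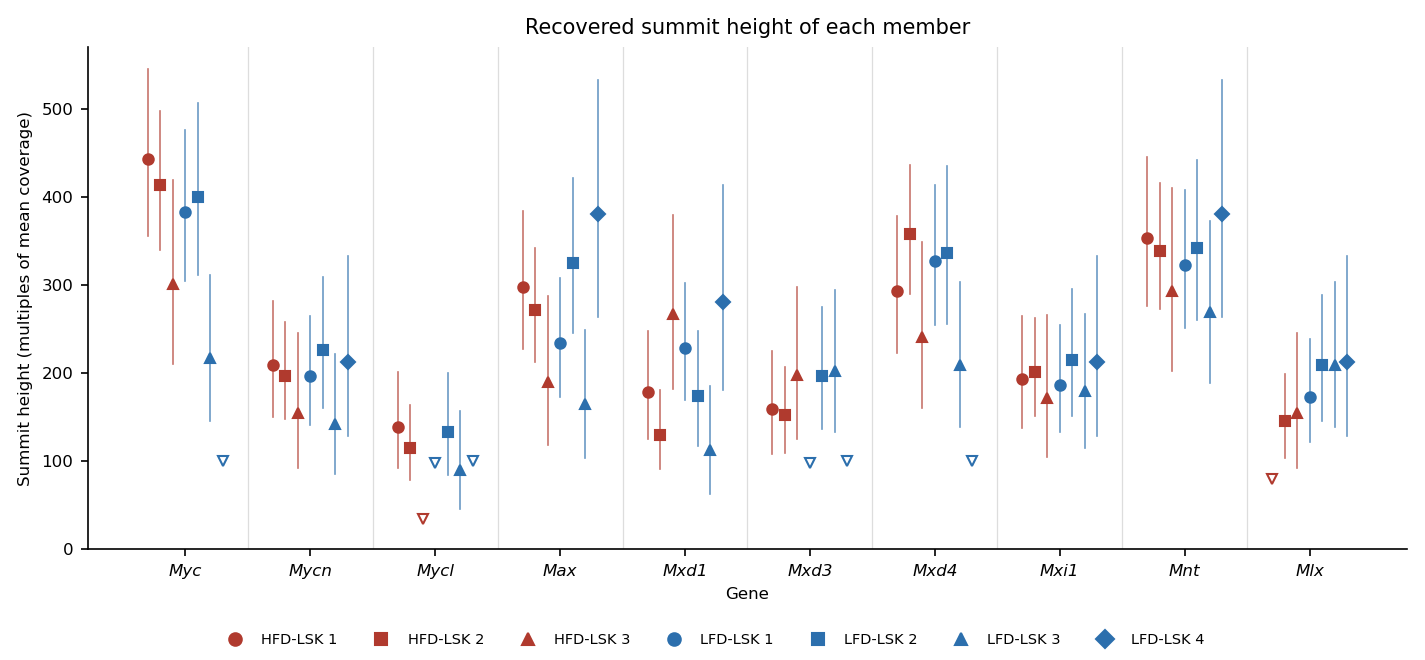
Summit height of each gene in each library in multiples of mean coverage, HFD-LSK in red and LFD-LSK in blue, with 95% intervals for counting error. Open triangles mark the calling limit of a list without a call. Myc, Mnt, Mxd4 and Max have the 4 highest medians, from 272 to 392, and Mycl the lowest, 125.

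Ordered by median summit height, the members ran from Myc (392 times mean coverage) through Mnt (339), Mxd4 (311) and Max (272) to a middle group of Mycn (198), Mxd3 (197), Mxi1 (194), Mlx (191) and Mxd1 (179), with Mycl (125) last. Each neighbor in this order overlapped the next in its range over the libraries, so the order between neighbors was not resolved. The medians rest on different lists where calls are missing, and the median height of all called peaks ran from 138 in HFD-LSK 3 to 236 in LFD-LSK 4. Within the lists, Myc was the highest member in 5 of the 6 that called it, with Mnt above it in LFD-LSK 3, and Mycl the lowest in 4 of 4. Of the ends, all 4 Mycl values lay below all 6 Myc values and all 7 Mnt values. Height here is that of the summit and does not scale with gene length.

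The contrast of the Myc paralogs with the antagonists showed no single direction in strength. The median fold rank of the 5 antagonists was nearer the top than that of the 3 paralogs in 4 of 7 lists, by 2371.5 ranks in HFD-LSK 1, 1228 in LFD-LSK 1, 2578 in LFD-LSK 3 and 6866.5 in LFD-LSK 4. It was farther by 1700 and 1792.5 ranks in HFD-LSK 2 and 3 and by 1089 in LFD-LSK 2. Both diets had lists of either sign. These medians hold the ranks filled in for missing calls, and in LFD-LSK 4, where Mycn was the only paralog called, that of the paralogs is such a rank. Over called members only, the antagonists were nearer in 3 of 7 lists, and the difference (antagonists minus paralogs) was 421 ranks in LFD-LSK 1 and -1911.5 ranks in LFD-LSK 4. By median height the antagonists were higher in 4 of 7 lists, HFD-LSK 2 and 3 and LFD-LSK 3 and 4. Of these, only LFD-LSK 3 and 4 also had the antagonists nearer the top by median rank. The paralogs themselves ranged from the highest member, Myc, to the lowest, Mycl. The partner Max ranked nearer the top than the median of either group in 5 of 7 lists, the exceptions being HFD-LSK 3 and LFD-LSK 3, and in 4 over called members only.

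In width the contrast had 1 direction. Over the called lists, the median width of the paralogs was 3544, 4282 and 2656.5 bp in HFD-LSK and 3015, 2594, 3520 and 2238 bp in LFD-LSK. That of the antagonists was 1761, 2626 and 1247 bp in HFD-LSK and 783.5, 1768, 2514 and 888 bp in LFD-LSK, smaller in 7 of 7 lists. This rests on Myc and Mycn, since Mycl, with a median of 934.5 bp, lay between Mxd1 (721 bp) and Mxd3 (961 bp), and in LFD-LSK 4 on Mycn alone. Among the antagonists Mnt and Mxi1 had consensus peaks of like length, so that 4 of 10 members had one over 3500 bp, where 1.95% of all consensus peaks did.

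**Figure D4:**
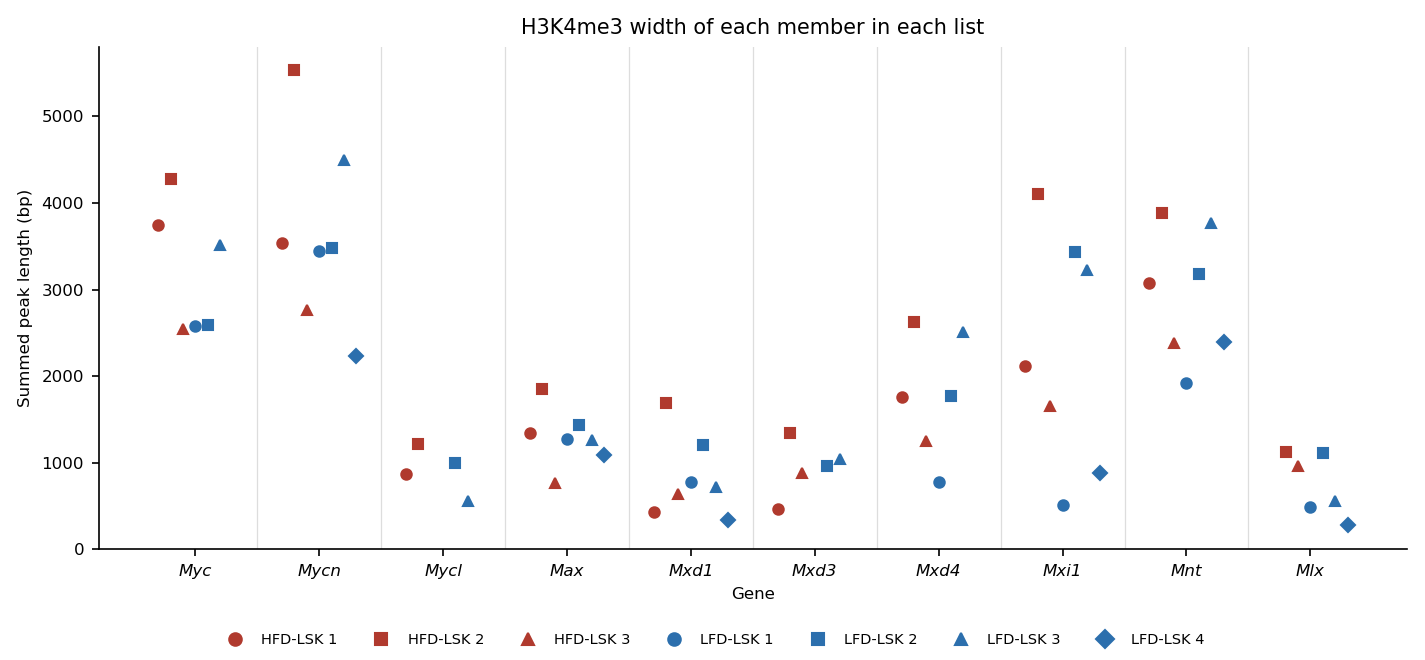
Summed length of the called peaks of each gene in each library in bp, HFD-LSK in red and LFD-LSK in blue, with a marker shape per replicate number. Mycn, Myc, Mnt and Mxi1 hold the widest domains, and HFD-LSK 2 gave the largest width for all 10 genes.

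Between diets, 9 of 10 members had a larger mean width in HFD-LSK, Mxd3 being the exception, but none of the 5 that could be tested passed an exact permutation p of 0.05. Of the 4395 consensus peaks called in all 7 lists, 93.0% had a larger mean width in HFD-LSK, and 3.57% passed with HFD-LSK larger and 0.0% with HFD-LSK smaller. The direction rested on HFD-LSK 2: without it 3 of 10 members (Myc, Mycl and Mlx) and 67.3% of those consensus peaks were wider in HFD-LSK, and with any other library left out 7 to 10 members were. HFD-LSK 2 had the widest peaks of all and LFD-LSK 4, the library of lowest mean coverage, the narrowest. The part of depth in the widths was not tested.

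Across the 62 member calls, the fold rank moved with the local background, which the fold holds by construction. The 29 calls with a background of at most 2 times the genome level stood at a median of 28.2% of the way down their list, from 1.51% to 87.5%. The 14 calls with over 10 times stood at a median of 71.7%, from 33.8% to 99.9%, although their median summit height was much the same, 210 against 215 times mean coverage. Of these 14 calls, 6 came from HFD-LSK 3, where the median background of the member calls was 18.9 times the genome level, and 0 from LFD-LSK 4, where it was 1.00 times. The calls share libraries and genes, and the background multiples carry no counting error here, so this is a description.

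**Figure D5:**
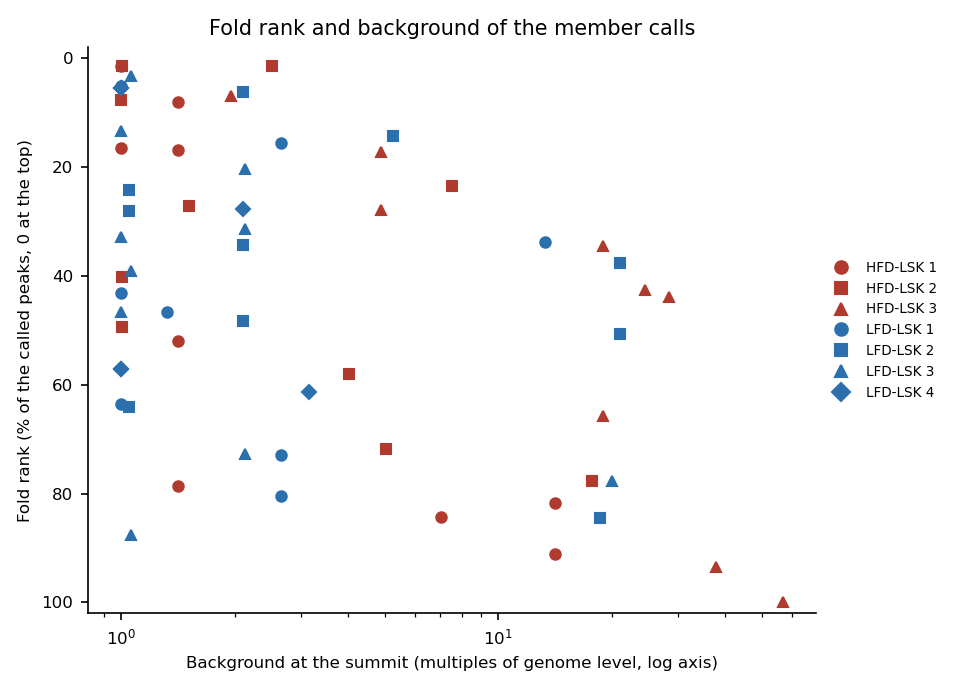
Fold rank of the 62 member calls as a percentage of the called peaks of their list, with 0 at the top, against the background at the summit that gave the fold, in multiples of the genome level on a log axis. Colors mark the diet and shapes the replicate number. No call with a background over 10 times the genome level stands above 33.8%.

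The other genes around the network were followed in 3 lists. Of the partners of Mlx and Max, Mlxip (MondoA) was called in all 7 lists at a median rank of 4579 and a median height of 274 times mean coverage, and Mlxipl (ChREBP) in none. Mga, a Max partner that also binds T-box sites, had no peak at its gene boundary and one at a curated transcript start in 4 lists. The ranks of Mlxip overlapped between the diets (exact permutation p = 0.229, two-sided).

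Of 20 genes for Myc cofactors and Myc protein stability, 13 were called in all 7 lists, 5 in some and 2 in none. Of all protein-coding starts, 21.2% were called in all 7 lists and 51.3% in at least 1. In either direction 0 of the 20 passed an unadjusted rank p of 0.05. Of all consensus peaks, 0.614% passed with HFD-LSK nearer the top and 1.38% with HFD-LSK farther from it. Hdac2, a deacetylase of the Sin3 complexes, stood nearest the top, at a median rank of 239.5 and a median height of 407 times mean coverage. Kat2a, an acetyltransferase, stood farthest, at 9881, with calls in 4 lists and the other lists filled in as above. Ruvbl1 and Huwe1 were called in 5 lists, and Wdr5, a subunit of the H3K4 methyltransferase complexes, in 6. Kat5 and Skp2 had no peak at the gene boundary, and at a further transcript start Kat5 was called in 4 lists and Skp2 in 7.

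Of 24 known Myc targets, 13 were called in all 7 lists, 10 in some and 1 in none, where 21.2% of protein-coding starts were called in all 7. An unadjusted rank p of 0.05 was passed by 0 of them, and by 0.614% (HFD-LSK nearer the top) and 1.38% (farther) of all consensus peaks. Gnl3 (nucleostemin) stood nearest the top, at a median rank of 54 and a median height of 488 times mean coverage. Tert, the telomerase reverse transcriptase, stood farthest, with a call in HFD-LSK 3 alone. Among those called in some lists, Ncl (nucleolin), Nop56 and Odc1, which makes polyamines, were called in 6, and Nop58 and Fbl, of the ribosomal RNA methylation complex, in 5. Ldha had no peak at its gene boundary and one at another transcript start in all 7 lists. Hspd1 and Hspe1 start from opposite strands of 1 shared promoter and so share 1 peak. Counting any RefSeq transcript start, 14 of 20 cofactor genes and 14 of 24 targets were called in all 7 lists and the rest in some, and of all protein-coding genes 22.6% were called in all 7 and 54.6% in at least 1.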

How the data were processed

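Peak lists of H3K4me3 in sorted LSK cells were analyzed, 3 of HFD-LSK and 4 of LFD-LSK, with 1 list per library. The sample titles name CUT&RUN and the extraction protocol CUT&Tag. The authors called peaks on each library, and the submitters' processing notes name Trim Galore, Bowtie2, Picard, MACS2, bedtools, HOMER, featureCounts and GRCm38, without versions. The paper's methods give GRCm39 and another peak caller. The peaks matched gene starts of GRCm38, which was used. The values deposited with every peak are a fold (the ratio of summit and local background, taken with 1 added to both), a −log10 p-value, a −log10 q-value and a score. The paper's methods set target samples against matched IgG for the peaks of that other caller, and whether MACS2 took the same control is not given in the sources used here.

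The 10 members and the other gene lists were chosen with earlier results of these data known. Gene starts came from RefSeq GRCm38.p6, with strands from its promoter table for 27025 genes and from GENCODE vM39 by symbol and chromosome for 18192. Touching peaks of the 7 lists were merged into consensus peaks. A consensus peak was called in a list when any peak of that list overlapped it, its width was the summed length of those peaks, and its rank was that of the largest fold. Differences in means were tested by an exact permutation test over the 35 assignments of the 7 libraries to 3 and 4, two-sided, with Benjamini-Hochberg adjustment over all consensus peaks, and calls by Fisher's exact test. Width and height were tested only for members called in all 7 lists.

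Depth was recovered by inverting the MACS2 formulas: a pseudocount of 1 was taken to enter both parts of the fold, and p to be a Poisson tail. Fragment numbers within 0.1 of a whole number fitted at least 99.9% of peaks in each list. Mean coverage was 0.0891 to 0.268 fragments, so a summit rested on a median of 15 to 48 fragments. No list was a copy of another. A summit below the calling limit of its list cannot be seen, and a missing call does not measure absence.

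All 10 members are named. From each other list, the genes nearest to and farthest from the top by median rank are named, with up to 6 genes called in no list or in some. Some genes of these lists are not reported here. The steps were tested on simulated lists. The alternatives were the same number of strongest peaks per list, a −log10 q of at least 5, a call covering 50% of the consensus peak, ranks by −log10 p, the longest single peak, a window of 3 kb, leaving out each library and a replicate block. Alternatives chosen after seeing the data were ranks by summit fragments, a common calling limit, ranks among the peaks called in all 7 lists, a peak of the list itself within 1 kb of the start, and role medians over called members only. Python 3.11.15, numpy 2.4.6, pandas 2.3.3, scipy 1.17.1 and matplotlib 3.10.9 were used. The first-cohort comparison with GMP cells that the paper describes was not analyzed here.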

Additional observations from a re-analysis of the deposited data

Results flagged for a closer look

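Among 22 sets of 4 LFD-LSK values, 2 held a single far value, where chance alone gives about 1 in 20. The fold rank of Mnt in LFD-LSK 2, at 5146, stood far from the other LFD-LSK lists, the nearest of which was at 1134.5, a gap of 0.833 of the range. The background at that summit was 21.0 times the genome level, and its part in the rank was not tested. The summit height of Mlx in LFD-LSK 1, at 173 times mean coverage, was the lowest of the 4, with the nearest at 209, a gap of 0.896 of the range.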

How the results depend on the processing

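No rank, width or height difference between the diets passed an exact permutation p of 0.05 under any alternative that was run. With a library left out or a replicate block it could not be reached. The direction of a rank difference was kept in 62 of 75 results under other settings and in 60 of 70 with 1 library left out. Myc and Mxi1 kept theirs in every alternative that was run, but the difference for Mxi1, 3628 ranks, was 266 by summit fragments (exact permutation p = 0.714) and 800 among the peaks called in all 7 lists (exact permutation p = 0.2), and that for Myc was -1527.5 with the replicate block. The alternatives by summit fragments, by a common calling limit, among the peaks called in all 7 lists, by a list's own peak within 1 kb, over called members only, and for the heights and the count of wider members were added after seeing the data. The cause of a change was not tested unless the alternative itself removes calls. The few fragments at a summit limit the precision of every height. Of the 8 missing calls, the calling limit of the list was under every called height of the gene in 6 and within them in 2, Mycl in LFD-LSK 1 and 4.

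With a −log10 q of at least 5, 2 members were called in all lists in place of 5, with the same number of strongest peaks 1, and with a call covering 50% of the consensus peak 0, since each removes calls, and 4 with a list's own peak within 1 kb. The median over libraries of the antagonists' minus the Myc paralogs' median rank, -1228, turned to 1089 with the q limit, to 421 over called members only and to 44 with ranks by −log10 p, and was 0 with 50% covered. At an unadjusted p under 0.05, HFD-LSK was farther from the top at 150 consensus peaks and nearer at 18, among those with a call in every list. The first count fell to 97 with the q limit, 36 with equal numbers, 44 with 50% covered, 66 ranked among these peaks only and 83 by summit fragments. The second was 4 with the q limit, 0 with 50% covered and 49 ranked among these peaks only. With 6 libraries a p under 0.05 cannot be reached, so these counts have no value with a library left out.

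Rank differences (HFD-LSK minus LFD-LSK) turned for Mlx to -1083 with the q limit and -1652 with 50% covered, and for Mnt to -1013 with 50% covered, -367 by −log10 p and -150 by summit fragments. They turned for Max to -175.5 and for Mxd1 to -9.67 by summit fragments, for Mxd3 to 1162 with 50% covered and 376 with equal numbers, for Mycl to -903 with the common limit, and for Mycn to -238 among the peaks called in all 7 lists.

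The replicate numbers gave no sign of pairs: the correlations of the deviations of same-numbered libraries were 0.109, -0.0246 and 0.0242. The paper adjusted its differential test for batch and paired samples and added a cohort for the LSK comparison. The sample titles do not name these batches, pairs or cohorts, so the main permutation test took none of them into account. With a replicate block over numbers 1 to 3, where the smallest p is 0.25, the rank difference turned for Mxd3 to 563.5 and for Mxd4 to 379, the width difference for Max to -8.33 bp, and the height difference for Max, Mnt and Mxd1 to 12.2, 16.9 and 20.4 times mean coverage, and no call changed.

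With each library left out in turn, the rank differences that turned ranged from -785 to 4320 for Max, -1076 to 4428 for Mlx, -2298 to 966.5 for Mxd3, -2940 to 379 for Mxd4, -990 to 1977 for Mycl and -1111 to 1565 for Mycn. Those that kept their sign ranged from -4929 to -1528 for Myc, the smallest without LFD-LSK 4, 2264 to 4996 for Mxi1, the smallest without HFD-LSK 2, 143.5 to 2289 for Mnt and 1292 to 3075 for Mxd1. Height differences ranged from -60.1 to 12.2 for Max, -20.4 to 17.1 for Mnt, -44.3 to 24.2 for Mxd1 and -24.8 to 8.64 for Mycn. Width differences ranged from -214 to 328 bp for Max, -88.5 to 661.5 bp for Mnt, -224.5 to 404.5 bp for Mxd1, -128.5 to 1093.5 bp for Mxi1 and -261 to 1126.5 bp for Mycn, and each of these lowest values came without HFD-LSK 2. The members called in all lists ranged from 5 to 7, the most without LFD-LSK 4, and the contrast of antagonists and paralogs from -1800 to -69.5.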
